A study of Mus musculus with 6 samples.

Results

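Mitosis and cytokinesis genes were followed in RNA sequencing of mouse cerebral cortex, where the study asked how the actin-binding protein CAP1 shapes gene expression. The genes were 34 symbols grouped by what their proteins do in dividing cells, and each symbol was found once among the 27179 genes of the table. All 34 passed the filter of a mean of at least 1 CPM (reads scaled to a common depth) over the 6 libraries, which kept 13885 genes. The Control group held 3 libraries (FF1, FF2 and FF4) from embryos with the genotype Cap1 flx/flx, and the CAP1-KO group held 3 libraries (FCRE3, FCRE4 and FCRE5) from Cap1flx/flx,Nestin-CRE embryos. Both groups were C57BL/6N at E18.5 and both carried floxed Cap1 alleles, which Cre recombinase can delete. The Nestin promoter drives Cre in neural progenitors and so in the neurons and glia that come from them, while cells of other origin, such as microglia, keep Cap1. Cre was present only together with floxed Cap1, so effects of the transgene and of CAP1 loss cannot be told apart.

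Cells that enter mitosis make a burst of proteins that are needed only for a short time. Cyclins with CDK1 start the division, kinases and checkpoint proteins watch the attachment of chromosomes, motors of the kinesin family build the spindle, and a bundle of microtubules between the separated chromosomes places the actin and myosin ring that cuts the cell apart. In embryonic cortex this program belongs to radial glia at the ventricle, to intermediate progenitors above them and to precursors of glia and interneurons, whereas cortical neurons have left the cell cycle. Transcription of many of these genes in G2 and mitosis depends on a short promoter sequence, the CHR element, which is bound by the MuvB complex with B-MYB and FOXM1 in cycling cells and by the repressive DREAM complex in resting cells. CCAAT boxes, bound by NF-Y, often lie upstream of it.

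The sequences at the gene starts show what these genes share beyond their function. RefSeq promoters (GRCm38.p6, 250 bases before to 50 after the start) were matched for 29 of the 34 genes, and Ccna2, Tpx2, Incenp, Aurkb and Kif20a had no match. A CHR element was searched as TTTGAA or TTTAAA and a CCAAT box as CCAAT, each on both strands, so that TTCAAA and ATTGG also count and TTTAAA reads alike on either strand. Of the 29 promoters, 25 (86.2%) held a CHR element in either form, against 27.8% of 27025 promoters of all genes. A CCAAT box was found in 23 (79.3%), against 37.9% of all promoters, and both motifs in 22 (75.9%), against 10.9%. Such short strings occur often, so a match describes the letters and is no evidence of a bound factor. The following stretches, from 150 bases before to 12 after the start and written 5′ to 3′ on the strand of the gene, belong to the 6 genes of highest mean CPM with a CCAAT box upstream of a CHR element, and capitals mark matches to either motif on either strand.
Top2a: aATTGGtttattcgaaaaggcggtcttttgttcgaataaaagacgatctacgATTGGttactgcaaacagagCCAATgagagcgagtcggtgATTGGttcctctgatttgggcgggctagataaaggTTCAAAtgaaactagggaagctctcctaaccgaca
Mki67: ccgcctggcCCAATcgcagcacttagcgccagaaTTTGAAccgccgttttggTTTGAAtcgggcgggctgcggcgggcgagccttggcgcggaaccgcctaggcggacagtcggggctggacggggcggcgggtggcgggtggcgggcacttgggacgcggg
Cenpf: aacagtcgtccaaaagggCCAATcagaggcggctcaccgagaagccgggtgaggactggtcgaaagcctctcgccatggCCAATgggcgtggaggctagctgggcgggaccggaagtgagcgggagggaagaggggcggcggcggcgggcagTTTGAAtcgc
Racgap1: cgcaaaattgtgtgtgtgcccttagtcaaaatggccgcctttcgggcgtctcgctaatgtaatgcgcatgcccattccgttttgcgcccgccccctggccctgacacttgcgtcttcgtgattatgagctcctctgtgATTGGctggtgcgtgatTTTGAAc
Kif11: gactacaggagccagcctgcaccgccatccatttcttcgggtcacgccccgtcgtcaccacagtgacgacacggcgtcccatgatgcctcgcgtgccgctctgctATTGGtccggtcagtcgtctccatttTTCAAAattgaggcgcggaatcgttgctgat
Prc1: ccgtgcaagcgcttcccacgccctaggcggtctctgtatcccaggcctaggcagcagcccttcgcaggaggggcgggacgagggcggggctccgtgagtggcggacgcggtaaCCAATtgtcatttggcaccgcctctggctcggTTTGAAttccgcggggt
The 6 stretches come from chr11:99024178-99024339 on the minus strand (Top2a), chr7:135716368-135716529 on the minus strand (Mki67), chr1:189688075-189688236 on the minus strand (Cenpf), chr15:99651645-99651806 on the minus strand (Racgap1), chr19:37376232-37376393 on the plus strand (Kif11) and chr7:80294301-80294462 on the plus strand (Prc1).

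In those stretches the CHR element of Racgap1 lay 17 bases downstream of its CCAAT box, counted from start to start, that of Mki67 25 bases, that of Kif11 26 bases and that of Prc1 32 bases. Cenpf had the wider spacing of 73 bases. A CCAAT box starting at most 50 bases before a CHR element was present in 18 of the 29 promoters (62.1%) and in 767 of all 27025 (2.84%), a limit that was chosen after the spacings had been seen. The same arrangement was found in 36.0% of 25 promoters of other spindle motor and microtubule genes, in 29.4% of 17 promoters of outer kinetochore genes and in 7.69% of 26 promoters of replication genes. No CHR element or CCAAT box was found in the windows of Nusap1, Cit and Kif18a. The plot of promoter motifs sets these shares side by side.

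**Figure D1:**
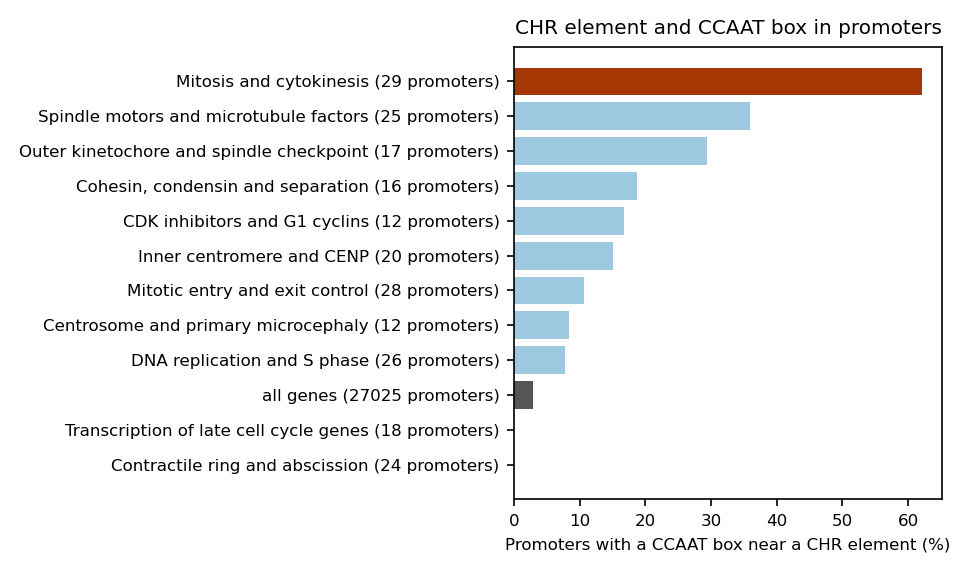
Share of promoters, in percent, with a CCAAT box starting at most 50 bases before a CHR element, for the mitosis and cytokinesis genes, for 10 other gene lists and for all genes, with the number of promoters of each in brackets. The bar of the mitosis and cytokinesis genes stands at 62.1%, that of other spindle motor genes at 36.0% and that of all genes at 2.84%.

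The libraries held 32443864 (FF4) to 36302598 (FCRE3) reads. On the scale of the authors' normalized values, 1 CPM stood for 31.2 (FF1) to 37.3 (FCRE3) reads. Total reads were 1.04 and 1.05 times the library size behind that scale in FF1 and FF2. In FF4 and the CAP1-KO libraries they were 0.97 to 0.98 times it. Cap1 had 194, 193 and 166 CPM in the Control libraries and 86.6, 85.9 and 82.9 CPM in the CAP1-KO libraries, and fell by 1.10 on the log2 scale (SE 0.07, limma adjusted p = 0.000283). Xist, which is expressed from the inactive X chromosome of females, was at 0.577 CPM in FF1 and 2.05 CPM in FF4 but at 2296 CPM in FF2, and its level was 2398 to 2653 CPM across the CAP1-KO group, so the sexes were not balanced between the groups. FF4 stood apart from the other Control libraries, with a chi-square per gene of 23.9 against FF1 and 31.5 against FF2, where FF1 and FF2 gave 8.71 and pairs of CAP1-KO libraries 5.54 to 10.8. All 12 markers of postmitotic projection neurons passed the filter. The labels call the samples biological replicates and give no litter or sequencing run, so p-values measure the spread between these samples only.

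All 34 genes had a higher mean in the CAP1-KO libraries, by a small amount, and none passed the test. The fold of mean CPM ran from 1.11 (Incenp) to 1.28 (Kif20a), with a median of 1.18. On the scale of log2(CPM + 1), the median difference was 0.23 and the range 0.14 to 0.34, beside a median of -0.01 over all tested genes. Limma's Benjamini-Hochberg adjusted p ran from 0.0974 to 0.504 for the 34 genes, against a threshold of 0.05, while 0.562% of all tested genes passed as higher and 0.403% as lower. A positive difference was seen in 34 of 34 genes and in 48.3% of all tested genes. An unadjusted p under 0.05 was reached by 19 genes (55.9%), against 7.74% of all tested genes in the higher direction, and limma-voom on recovered reads also called none of the 34. In 10 genes (29.4%) all 3 CAP1-KO libraries lay above all 3 Control libraries, which was so for 11.1% of all tested genes, and 14.6% of tested genes lay apart in the opposite direction. The genes share regulators and cell types, so they are not independent observations of the direction. In bulk tissue, more dividing cells and more of these RNAs in each dividing cell cannot be told apart.

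**Figure D2:**
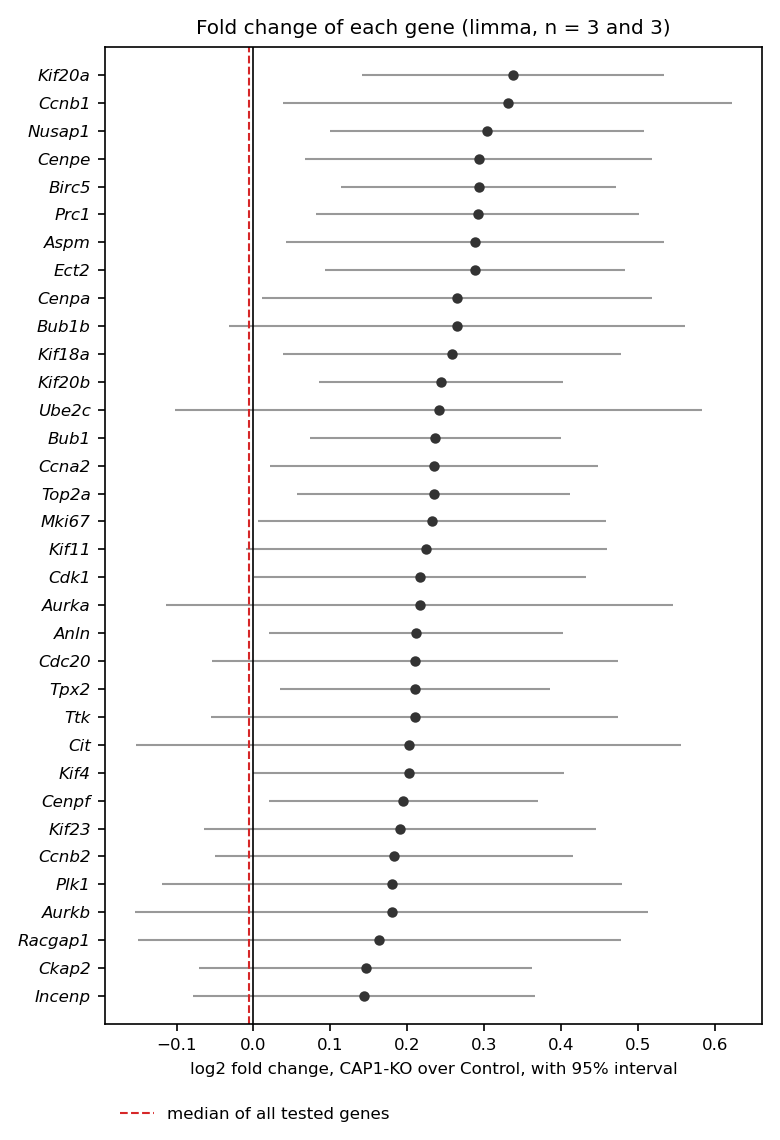
Difference between CAP1-KO and Control on the log2(CPM + 1) scale for each of the 34 genes (points), ordered by size, with 95% limma intervals (lines) and the median of all tested genes as a dashed line. All points lie above 0, between 0.14 and 0.34, and 19 intervals exclude 0.

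The fewest reads behind a value were 205 (Kif18a in FF1) and the most 5302 (Top2a in FCRE3). The median SE of the 34 differences was 0.10, beside 0.079 over all tested genes. Read as a fold of CPM + 1, which is smaller than the fold of CPM, the 95% interval reached 1.5 in 1 gene, Ccnb1, and 2 in none. Its upper end was 1.499 in Ube2c. Per kilobase of exon, Top2a had the highest level with a mean of 13.8 CPM per kb, followed by Mki67 with 11.2, Ccna2 with 10.2 and Tpx2 with 8.56, and Kif18a had the lowest with 0.768.

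The 6 libraries stood in a similar order in most of the genes. FCRE3 and FCRE5 both lay above every Control library in 33 of the 34 genes, with Cit as the exception. FCRE4 was the lowest CAP1-KO library in 33 genes and lay above every Control library in only 10. Among Control libraries, FF1 was the highest in 31 genes. The summed level of the 34 genes was 920 CPM in FF1, 821 CPM in FF2 and 823 CPM in FF4, and 1085, 887 and 1059 CPM in FCRE3, FCRE4 and FCRE5. FCRE4 thus lay below FF1 and above the other Control libraries in the sum, and the groups overlapped. The mean deviation from the Control mean, on the log2 scale, was 0.34 in FCRE3 and 0.29 in FCRE5 but 0.06 in FCRE4.

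**Figure D3:**
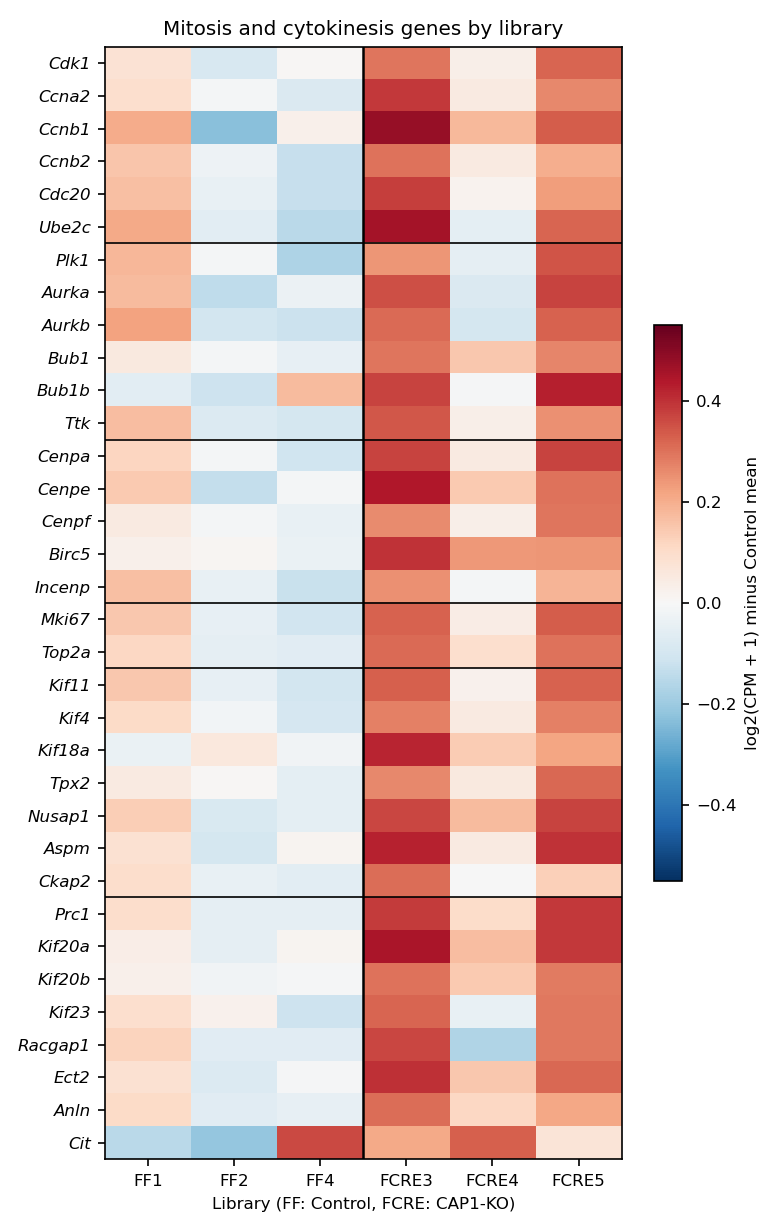
Deviation of each of the 34 genes from its Control mean on the log2 scale, in each of the 6 libraries, with red for values above it and blue for values below, and with lines between the role groups. FCRE3 and FCRE5 are shifted upward for nearly all genes (mean deviation 0.34 and 0.29), and FCRE4 (0.06) lies among the Control libraries.

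Cyclins, CDK1 and the partners of the anaphase-promoting complex had a median difference of 0.23 (0.18 to 0.33, adjusted p 0.173 to 0.366), and none of the 6 was free of overlap between groups. Ccna2, cyclin A2, which acts in S phase and at mitotic entry, was at 40.5, 37.5 and 35.8 CPM in FF1, FF2 and FF4 and at 49.9, 39.2 and 45.8 CPM in FCRE3, FCRE4 and FCRE5. FCRE4 lay below FF1, so the groups overlapped, and the difference was 0.23 (SE 0.09, limma adjusted p = 0.181). Ccnb1, cyclin B1, the main partner of CDK1 at mitotic entry, was at 14.1, 10.2 and 12.4 CPM in the Control libraries and at 17.3, 13.9 and 15.6 CPM in the CAP1-KO libraries. Only FCRE4 lay within the Control range, just under FF1, and the difference of 0.33 (SE 0.13, limma adjusted p = 0.173) was the largest of the group. Cdk1, the kinase itself, differed by 0.22, Ccnb2, the other B-type cyclin, by 0.18, Cdc20, which activates the anaphase-promoting complex, by 0.21, and Ube2c, the ubiquitin-conjugating enzyme that works with it, by 0.24.

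Mitotic kinases and checkpoint genes had a median difference of 0.21 (0.18 to 0.26), with adjusted p between 0.118 and 0.489. Bub1, a kinase of the spindle assembly checkpoint at kinetochores, was at 13.5, 12.8 and 12.5 CPM in the Control libraries and at 16.1, 14.5 and 15.8 CPM in the CAP1-KO libraries. The groups did not overlap, FCRE4 being the lowest of its group, and the difference was 0.24 (SE 0.07, limma adjusted p = 0.118). Bub1b, which encodes the checkpoint protein BubR1, was at 22.3, 21.4 and 26.4 CPM in the Control libraries and at 30.4, 23.2 and 31.6 CPM in the CAP1-KO libraries. Here FF4, not FF1, was the highest Control library and FCRE4 lay below it, with a difference of 0.26 (SE 0.13, limma adjusted p = 0.260). Plk1, Aurka and Aurkb, kinases of mitotic entry, of the spindle poles and of the chromosomal passenger complex in turn, differed by 0.18, 0.22 and 0.18, and Ttk, the checkpoint kinase MPS1, by 0.21. All 4 had FCRE4 below FF1.

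Centromere, kinetochore and chromosomal passenger genes had the highest median of the role groups, 0.26 (0.14 to 0.29, adjusted p 0.106 to 0.409), though the medians of all 6 groups lay between 0.21 and 0.26. Birc5, survivin, a subunit of the chromosomal passenger complex, was at 8.69, 8.57 and 8.28 CPM in the Control libraries and at 11.5, 10.2 and 10.3 CPM in the CAP1-KO libraries. The Control libraries were close together, 8.51 ± 0.212 CPM (SD, n = 3), and all CAP1-KO libraries lay above them, with a difference of 0.29 (SE 0.08, limma adjusted p = 0.106). Cenpe, a kinesin that moves chromosomes to the spindle equator, was at 31.7, 26.0 and 28.3 CPM in the Control libraries and at 39.1, 31.6 and 35.3 CPM in the CAP1-KO libraries. FCRE4 lay just under FF1, and the difference was 0.29 (SE 0.10, limma adjusted p = 0.140). Cenpf, a large kinetochore protein, was at 52.1, 49.9 and 48.9 CPM in the Control libraries and at 60.3, 51.4 and 61.9 CPM in the CAP1-KO libraries, so that FCRE4 alone lay within the Control range (difference 0.20, SE 0.08, limma adjusted p = 0.177). Cenpa, the centromeric histone H3 variant, differed by 0.26, and Incenp, the scaffold of the passenger complex, by 0.14, the smallest difference of the 34.

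Top2a and Mki67 were the most abundant of the genes. Top2a encodes the DNA topoisomerase that untangles sister chromatids, and its promoter above holds 4 CCAAT boxes and a CHR element in the stretch shown. Its level was 124, 110.3 and 109.3 CPM in the Control libraries and 142, 122 and 141 CPM in the CAP1-KO libraries. FCRE4 lay just below FF1, and the difference was 0.23 (SE 0.08, limma adjusted p = 0.136). Mki67, whose protein Ki-67 coats mitotic chromosomes and is the usual marker of cycling cells, differed by 0.23 as well (limma adjusted p = 0.206).

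Spindle motors and assembly factors had a median difference of 0.23 (0.15 to 0.30, adjusted p 0.115 to 0.387). In 3 of 7 the groups did not overlap, beside 11.1% of all tested genes in that direction. Nusap1, which bundles spindle microtubules near chromosomes, was at 17.4, 14.8 and 15.1 CPM in the Control libraries and at 20.6, 17.9 and 20.6 CPM in the CAP1-KO libraries. FCRE4 lay just above FF1, and the difference was 0.30 (SE 0.09, limma adjusted p = 0.115). Kif18a, a kinesin that dampens the movements of aligned chromosomes, was at 6.57, 7.09 and 6.68 CPM in the Control libraries and at 9.38, 7.56 and 8.04 CPM in the CAP1-KO libraries. It was the only gene whose highest Control library was FF2, the groups lay apart, and the difference was 0.26 (SE 0.09, limma adjusted p = 0.165). Tpx2, which activates Aurora A and starts microtubules around chromosomes, was at 38.2, 37.1 and 35.6 CPM in the Control libraries and at 44.6, 38.4 and 46.2 CPM in the CAP1-KO libraries. FCRE4 lay only just above FF1, and the difference was 0.21 (SE 0.08, limma adjusted p = 0.161). Kif11, the motor that pushes spindle poles apart, was at 41.6, 36.3 and 34.9 CPM in the Control libraries and at 47.3, 38.1 and 47.2 CPM in the CAP1-KO libraries, with FCRE4 within the Control range (difference 0.23, SE 0.10, limma adjusted p = 0.233). Aspm, a spindle pole protein whose loss causes microcephaly, differed by 0.29, Kif4, a chromokinesin, by 0.20 and Ckap2, a microtubule-associated protein, by 0.15.

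Central spindle and cytokinesis genes held 5 of the 10 genes without overlap between groups, where 11.1% of all tested genes lay apart in that direction. Their median difference was 0.23 (0.16 to 0.34, adjusted p 0.0974 to 0.504). Kif20a, the kinesin MKLP2, which carries the passenger complex to the central spindle, was at 16.2, 15.2 and 15.9 CPM in the Control libraries and at 21.9, 17.9 and 21.0 CPM in the CAP1-KO libraries. Control libraries averaged 15.8 ± 0.534 CPM and CAP1-KO libraries 20.3 ± 2.11 CPM (SD, n = 3), and every CAP1-KO library lay above them. The difference of 0.34 (SE 0.08, limma adjusted p = 0.0974) was the largest of the 34. Its 95% interval, read as a fold of CPM + 1, ran from 1.10 to 1.45. Kif20b, a related kinesin that acts late in cytokinesis of cortical progenitors, was at 14.5, 14.0 and 14.1 CPM in the Control libraries and at 17.7, 15.8 and 17.6 CPM in the CAP1-KO libraries. It showed a tight Control group and no overlap, with a difference of 0.24 (SE 0.07, limma adjusted p = 0.111). Ect2, the exchange factor that switches on RhoA at the division plane, was at 17.5, 15.5 and 16.3 CPM in the Control libraries and at 22.0, 18.3 and 20.7 CPM in the CAP1-KO libraries, again without overlap (difference 0.29, SE 0.08, limma adjusted p = 0.116).

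Prc1, which crosslinks the antiparallel microtubules of the central spindle, was at 31.6, 28.5 and 28.5 CPM in the Control libraries and at 38.8, 31.7 and 38.9 CPM in the CAP1-KO libraries. FCRE4 exceeded FF1 by far less than FCRE3 and FCRE5 did, and the difference was 0.29 (SE 0.09, limma adjusted p = 0.128). Anln, anillin, a scaffold that links RhoA, actin and myosin in the contractile ring, was at 13.0, 11.5 and 11.6 CPM in the Control libraries and at 15.1, 13.1 and 14.0 CPM in the CAP1-KO libraries. FCRE4 lay just above FF1 there too, and the difference was 0.21 (SE 0.08, limma adjusted p = 0.181). Racgap1, the GTPase-activating subunit of centralspindlin, was at 49.3, 43.2 and 43.1 CPM in the Control libraries and at 58.6, 40.1 and 55.3 CPM in the CAP1-KO libraries. It was the only gene of the 34 whose lowest value of all lay in FCRE4, and its difference was 0.16 (SE 0.14, limma adjusted p = 0.504). Kif23, the motor subunit of centralspindlin, differed by 0.19.

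Cit, citron kinase, which organises the midbody, is named here because its order of libraries, seen afterwards, was unlike the rest. It was at 14.0, 13.4 and 20.4 CPM in the Control libraries and at 18.3, 19.9 and 16.5 CPM in the CAP1-KO libraries. FF4 was the highest of all 6 libraries and FCRE5 the lowest of its group, so the groups overlapped (difference 0.20, SE 0.15, limma adjusted p = 0.463). The gene also makes a shorter form, citron-N, that lacks the kinase domain and is found in postmitotic neurons, and the gene-level values do not separate the forms.

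**Figure D4:**
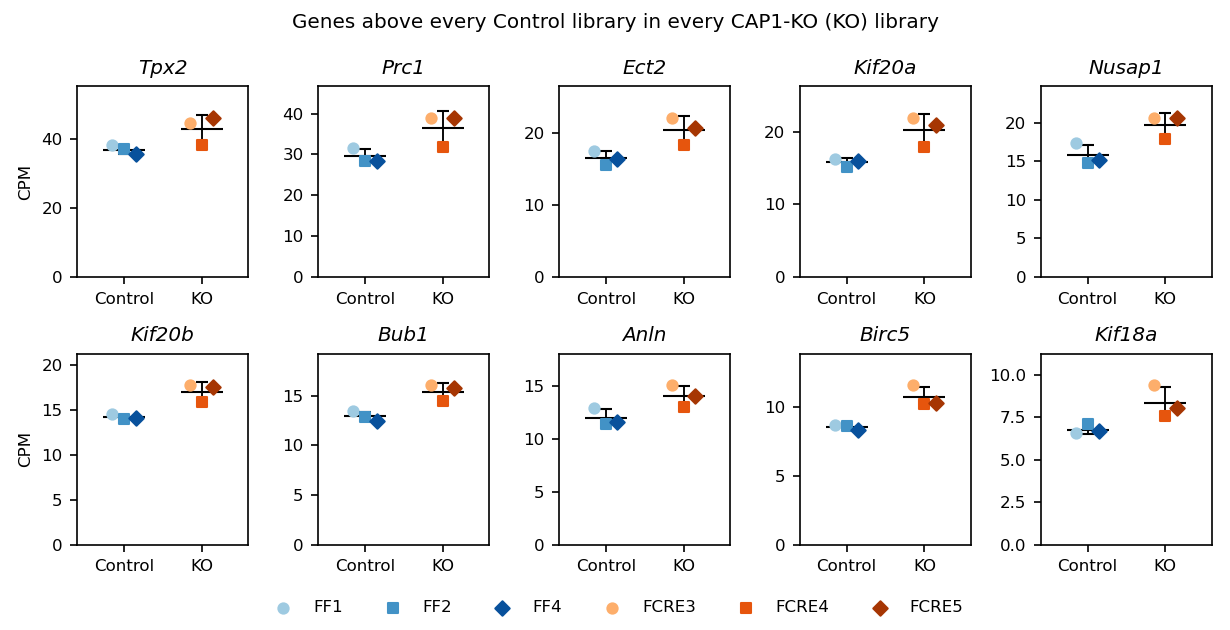
Level in CPM in each of the 6 libraries for the 10 genes without overlap between the groups, with points for libraries and dashes with error bars for group means and SD. In each gene the lowest CAP1-KO library lies above the highest Control library, for Tpx2 at 38.4 against 38.2 CPM.

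The authors' deposited table gave the same directions. In the authors' deposited table the log2 fold change of the 34 genes ran from 0.15 to 0.36 with a median of 0.24, and the FDR from 0.104 to 0.787. None of the 34 was under an FDR of 0.05 in the authors' deposited table, where 0.677% of the tested genes were under it as higher.

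Other genes of the cell cycle were counted by list, and none of the 235 tested passed in either direction by limma or limma-voom. At an unadjusted p under 0.05, 58 of them were higher and 6 lower by limma, where 7.74% of all tested genes were higher and 15.3% lower. Outer kinetochore and checkpoint genes were the nearest in size, with positive differences in 20 of 21, all CAP1-KO libraries above all Control libraries in 12 (11.1% of all tested genes) and a median of 0.22. Their most abundant genes were Zwint, a kinetochore adaptor, and Bub3, a checkpoint protein. Zwint was at 176 ± 29.6 CPM in Control against 205 ± 8.02 CPM (SD, n = 3, difference 0.23, limma adjusted p = 0.252). Its groups overlapped, because FF4 at 210 CPM lay above FCRE3 at 204 CPM and FCRE5 at 197 CPM. Bub3 differed by 0.08. Replication and S phase genes had positive differences in 33 of 34, such a separation in 11, to be read beside the same 11.1%, and a median of 0.15. Among them Mcm7, a subunit of the replicative helicase, was at 96.5 CPM in Control against 107 CPM (difference 0.14), and Rrm1, of ribonucleotide reductase, differed by 0.15. Other spindle motors and microtubule factors had a median of 0.16 with 21 of 27 positive. Ckap5, a microtubule polymerase, differed by 0.06 and Numa1, a spindle pole organiser, by -0.06. Inner centromere genes had a median of 0.15 with 19 of 21 positive, although their most abundant gene, Cenpb, was at 195 ± 19.6 CPM in Control against 165 ± 2.10 CPM (SD, n = 3; difference -0.24, limma adjusted p = 0.129), and Cenpc1 differed by -0.04.

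Smaller medians were found elsewhere. Cohesin and condensin genes had a median of 0.10 with 17 of 19 positive (Smc1a 0.05, Rad21 0.02), genes of mitotic entry and exit 0.10 with 24 of 33 positive (Anapc5 0.04, Anapc1 0.07), and centrosome and microcephaly genes 0.11 with 11 of 16 positive. The most abundant of the last list, Ccp110 and Cdk5rap2, were at 101 and 55.3 CPM in Control against 101 and 55.2 CPM. CDK inhibitors and G1 cyclins had a median of 0.07 with 10 of 14 positive, and Ccnd2 and Cdk4, which drive progenitors through G1, differed by 0.03 and 0.02. The transcription factors of late cell cycle genes had a median of 0.06 with 13 of 23 positive. Among them Nfya, a subunit of the CCAAT-binding factor, was at 127, 128 and 80.4 CPM in the Control libraries and at 81.6, 90.3 and 85.2 CPM in the CAP1-KO libraries, with FF4 apart from the other Control libraries (limma adjusted p = 0.254). Contractile ring and abscission genes, most of which also serve cells that do not divide, had a median of -0.01 with 13 of 28 positive. Myh10, non-muscle myosin IIB, was at 697 ± 69.4 CPM in Control against 750 ± 31.8 CPM (SD, n = 3), and Spast, spastin, differed by -0.09.

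**Figure D5:**
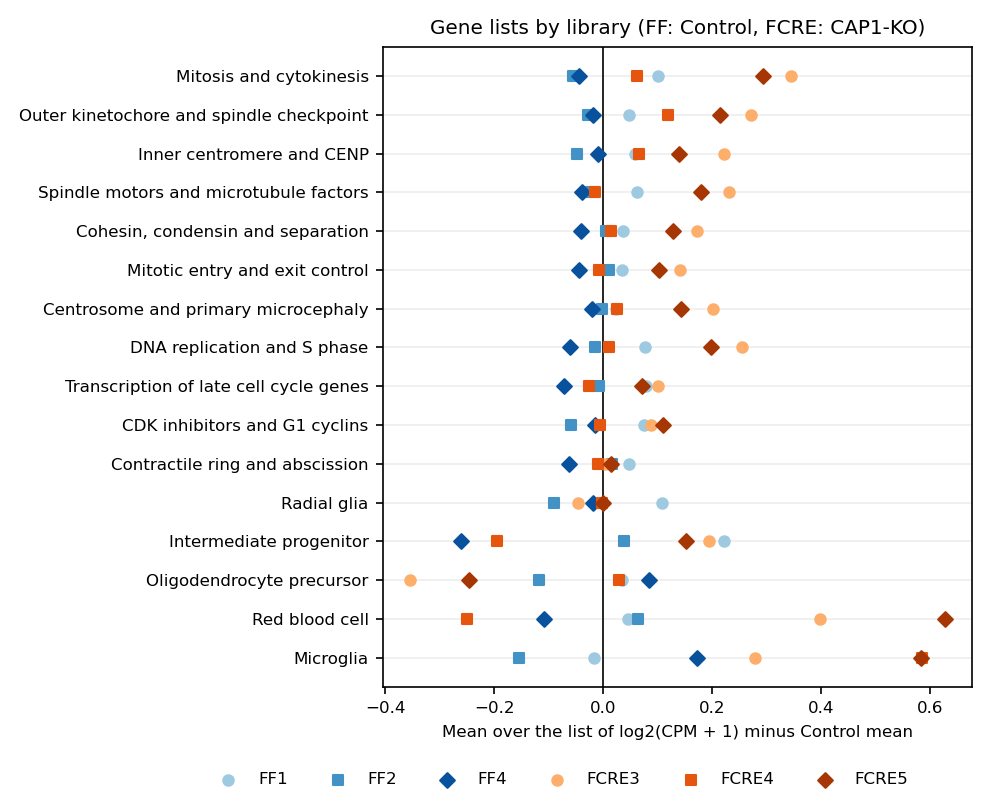
Mean deviation from the Control mean, on the log2 scale (horizontal axis), of 16 gene lists in each of the 6 libraries, 1 point a library. The 34 mitosis and cytokinesis genes and the replication list share the order of the CAP1-KO libraries (FCRE3 0.34 and 0.25, FCRE5 0.29 and 0.20, FCRE4 0.06 and 0.01). The intermediate progenitor list and most other cell cycle lists have the same order. In the G1 cyclin and contractile ring lists FCRE5 is the highest of them instead. The radial glia list stays between -0.09 and 0.11.

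By mean deviation, FCRE4 was also the lowest CAP1-KO library in the intermediate progenitor, ventral progenitor, projection neuron and red blood cell lists. In the projection neuron list the gap was small (-0.29 against -0.25 and -0.23). FCRE3 was the lowest in the radial glia, oligodendrocyte precursor, microglia, endothelial, mural cell and meningeal lists, and FCRE5 in the interneuron and choroid plexus lists. The intermediate and ventral progenitor lists also had FCRE3 above FCRE5, as in the 34 genes. In none of these lists was the order of all 6 libraries that of the 34 genes. The intermediate progenitor list had mean deviations of 0.22, 0.04 and -0.26 in FF1, FF2 and FF4 and of 0.19, -0.20 and 0.15 in FCRE3, FCRE4 and FCRE5, with a summed level of 160 to 246 CPM in Control against 163 to 215 CPM. FCRE4 was thus low in it and FF1 high, as in the 34 genes. Red blood cell genes, 4 of 4 tested positive, summed to 152 to 165 CPM in Control against 138 to 249 CPM, with deviations of 0.40 in FCRE3, -0.25 in FCRE4 and 0.63 in FCRE5. Radial glia genes, 5 of 13 positive, had a median of -0.06 and a summed level of 2400 to 2662 CPM in Control against 2377 to 2483 CPM. Ventral progenitor genes had a median of 0.30 with 4 of 5 positive, and their sums, 157 to 223 CPM in Control against 201 to 245 CPM, overlapped between the groups. Their deviations were -0.13, -0.34 and 0.46 in FF1, FF2 and FF4 and 0.61, 0.32 and 0.49 in FCRE3, FCRE4 and FCRE5. Microglia genes, of cells that divide at this age, had a median of 0.56 with 12 of 13 positive, and summed to 67.9 to 88.1 CPM in Control against 101 to 127 CPM, with FCRE4 as high as FCRE5 (0.58 in each). Choroid plexus genes, 3 of 6 of them tested, summed to 0.80 to 4.32 CPM in Control against 51.5 to 113 CPM. Most of the CAP1-KO sums was Ttr, at 90.9, 104 and 47.0 CPM in FCRE3, FCRE4 and FCRE5. Meningeal genes summed to 16.6 to 17.9 CPM in Control, and to 18.3, 97.2 and 85.9 CPM in FCRE3, FCRE4 and FCRE5. Of the other marker lists, oligodendrocyte precursor genes had a median of -0.19 (1 of 7 positive) and endothelial genes of -0.28 (1 of 10). Interneuron genes had a median of 0.46 (6 of 8 positive), but their sum in FF4, 625 CPM, exceeded that of every CAP1-KO library (541 to 589 CPM), and FF1 and FF2 had 405 and 366 CPM. Projection neuron genes had a median of -0.30 (1 of 12 positive), and the deviation of FF4, -0.27, lay within the -0.29 to -0.23 of the CAP1-KO libraries. The part of these cells in the levels of the 34 genes was not tested.

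Some calls among the 34 genes depended on which libraries were compared. Without FCRE4, Kif20a passed the threshold (difference 0.42, SE 0.07, limma adjusted p = 0.0462), 33 genes had no overlap between groups and the median was 0.32, while 0.562% of all tested genes passed as higher and 19.7% had no overlap in that direction. Without FF1, 28 genes had no overlap, beside 14.1% of all tested genes, and none passed the threshold. Without FF4, Kif20a (0.34, limma adjusted p = 0.0253), Birc5 (0.27, limma adjusted p = 0.0488) and Cit (0.38, limma adjusted p = 0.0132) passed and the median was 0.20, in a fit where 9.36% of all tested genes passed as higher. Against FF2 alone, the Control library with Xist reads, Ccnb1 passed (0.56, SE 0.14, limma adjusted p = 0.0401) and 31 genes had no overlap, beside 4.51% of all tested genes passing as higher and 32.1% without overlap in that direction. In that fit FF2 is assumed to vary like the CAP1-KO libraries. Other left-out libraries weakened the result. The 19 genes with a limma unadjusted p under 0.05 became 6 without FCRE3, 7 without FCRE5, 8 without FF2 and 15 without FF4. They became 23 without FF1 and 31 without FCRE4. The median was 0.18 without FCRE3, 0.20 without FCRE5 and 0.21 without FF2, and none of the 34 passed in those 3 fits. All 34 differences were positive under each of the 15 alternatives that were run.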

How the data were processed

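RNA was measured by poly(A) sequencing with strand-specific libraries in 3 Control and 3 CAP1-KO cerebral cortices, per the labels' protocols. Per the submitters' processing notes the authors named STAR, edgeR, GRCm38 and mm10, without versions, and their counting tool and gene models were not stated in these sources. Each library column holds normalized counts that the authors deposited as log2 values. The table also holds, per the file headers, an F score, a p-value, an FDR, a mean log2 CPM and a log2 fold change of the authors' own comparison. Library columns were assigned to groups by the genotype in their names, because their numbers did not match the labels' replicate numbers.

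Values were put back on the CPM scale, where 100% came within 0.01 of a whole read after the shared offset was removed. Limma 3.58.1 (R 4.3.3) with an intensity trend was fitted to log2(CPM + 1) for the 13885 genes averaging 1 CPM or more, a scale which understates changes of low genes, and p-values were adjusted over all of them (Benjamini-Hochberg, threshold 0.05). The fit was tested on simulated data, where it called 9 of 100 genes changed 1.2-fold and 84 of 100 changed 2-fold. Of 13685 unchanged genes it called 4. A difference of the size seen in the 34 genes would thus mostly be missed. The 34 genes and all lists were chosen with earlier results of these data known. Values in every library are given for genes past the threshold or without overlap, and in each role group for the gene of highest mean CPM and the gene with the largest difference. Of other lists, the genes past the threshold or otherwise the most abundant pair are named. Of 378 list genes, 377 were matched, 456 of 1169 missing symbols having been filled from RefSeq. Exon lengths came from GENCODE. No pair of replicates agreed within sampling noise. Alternatives were other scalings, limma-voom, other filters and pseudocounts, Xist as a covariate and left-out libraries. Figures were drawn with matplotlib 3.10.9.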

Additional observations from a re-analysis of the deposited data

How the results depend on the processing

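The test called 134 genes over the whole table, 88 with no filter on low values, 26 with Xist as a covariate, 1811 against FF2 alone, and 36 to 3922 when each library was left out in turn (42 without FF1, 60 without FF2, 3922 without FF4, 69 without FCRE3, 253 without FCRE4, 36 without FCRE5). The cause was not tested. None of the 34 mitosis and cytokinesis genes was called, 1 against FF2 alone, and 0 to 3 when each library was left out. Every CAP1-KO library lay above every Control library in 10 of them, beside 11.1% of all tested genes, and in 31 against FF2 alone, beside 32.1%. When each library was left out the count was 10 to 33, with 28 without FF1 (14.1% of all tested genes) and 33 without FCRE4 (19.7%). With fewer libraries to compare, a separation is easier to reach for any gene. Of 510 values (34 genes under 15 alternatives), 505 kept their direction and side of the threshold, 5 passed it and none changed sign. The median difference of the 34 genes was 0.23 in the main fit. It was 0.29 when libraries were scaled to total reads, where the median of all tested genes also moved, from -0.01 to 0.06. With Xist as a covariate it was 0.28, but the median SE of the 34 genes was 0.14 instead of 0.10. In that fit 9 of them, instead of 19, had a limma unadjusted p under 0.05. No paired analysis was possible because the labels give no litter or other link between Control and CAP1-KO samples. The numbers in the library columns also differ from the numbers that the labels give to replicates. Intervals cover the spread between these samples only.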
